A study of Sus scrofa with 4 samples.

Results

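The enzymes that carry glucose to pyruvate, together with the enzymes at the branch where pyruvate becomes lactate or enters the mitochondrion, were examined in pig (Sus scrofa) blastocysts. The members were every probe that the array's probe-to-gene table assigns to HK1, HK2, ALDOA, TPI1, GAPDH, PGK1, ENO1, LDHA, LDHB or PDHA1. Of these 10 genes, 9 had a probe, out of 11938 named genes in the table, giving 13 probes of the 43794 on the array, and ALDOA was not analysed here. GAPDH and LDHB had 2 probes each, PGK1 had 3 and the others had 1.

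In the study, the blastocysts came from cumulus-oocyte complexes (an oocyte inside its layer of cumulus cells) that had been matured beside luteal cells of the pig, the hormone-secreting cells of the corpus luteum. The other condition was blastocysts from control complexes. The labels state 4 pools of 10 blastocysts collected on days 7 and 8, and name the 4 two-colour arrays as biological replicates 1 to 4. Each array held coculture RNA in 1 channel and control RNA in the other. Coculture RNA carried Cy5 and control RNA Cy3 on replicates 1 and 2, and the dyes were exchanged on replicates 3 and 4. The treatment was applied to the maturing oocyte and the readout was taken in the later embryo. The labels do not say whether the 4 pools are counted per condition or over both, which pool came from which day, how the pools relate to donors, fertilisation runs or cultures, or how the control complexes were kept. Each p-value and each n of 4 thus refers to the arrays, and reflects no more than the variation among them, which may be technical. Because whole embryos were pooled, fewer cells of a type and less RNA per cell cannot be told apart.

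Glycolysis turns 1 glucose into pyruvate in the cytosol and yields a small gain of ATP and NADH. Pyruvate is then reduced to lactate by lactate dehydrogenase, which restores NAD+, or is oxidised to acetyl-CoA by the pyruvate dehydrogenase complex, the gate to the tricarboxylic acid cycle. Mammalian embryos use mainly pyruvate in early cleavage and take up more glucose as they form a blastocyst.

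Median probe intensities were 585 to 840 over the 8 channels (4 arrays with 2 dyes). A probe was called above the detection limit of a channel when it was brighter than the average of the 153 negative-control spots there by more than 2 of their SDs, which put the limits at 699 to 978 intensity units. The share of probes above the limit was higher in Cy3 than in Cy5 on each of the 4 arrays, at 29.8% to 34.8% against 23.5% to 29.2%, and so changed sides between the conditions with the dye exchange. Across all tested probes, log2 ratios turned to coculture over control correlated at 0.21 between replicates 1 and 2 and at 0.16 between replicates 3 and 4, against -0.19 to -0.03 across the dye orientations. Trophectoderm markers were at high signal, with 7 of 10 above the limit in all 8 channels and a summed level of 190971 to 229964 in coculture and 196818 to 222117 in control. Of the 5 inner cell mass and epiblast markers with a probe, 2 were above the limit in all 8 channels (POU5F1 and LIN28A), with sums of 3305 to 5206 in coculture and 4048 to 5282 in control. For 7 primitive endoderm markers the sums were 7404 to 13762 and 8593 to 13919, with 3 above the limit in all 8 channels. For granulosa, cumulus and luteal markers, 1 of 11 (FST) was above the limit in all 8 channels and 3 were above it in none, with sums of 5917 to 8640 in coculture and 5886 to 9416 in control. Oocyte markers gave sums of 3895 to 5880 and 4619 to 5942, with 1 of 10 (ZP2) above the limit in all 8 channels. The ranges of these sums, which the brightest probes dominate, overlapped between the conditions for each list.

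Single markers differed more. Of 27 markers tested, 17 had fitted log2 ratios below 0 and 10 above, with a median of -0.11, and 7 of 9 trophectoderm ratios were below 0. Among all tested probes 49.7% were below 0. Before adjustment 5 markers passed 0.05, all lower after coculture, and 0 passed after adjustment in limma. Of all tested probes 7.84% passed 0.05 before adjustment, 3.7% lower and 4.15% higher. The primitive endoderm markers APOA1 and APOE, both apolipoprotein genes, were at -1.08 and -1.03. APOE was below 0 on all 4 arrays, though above the limit on 2 arrays in coculture against 4 in control. APOA1 was at -2.15 and -2.54 on replicates 1 and 2 against -0.03 and 0.39 on replicates 3 and 4. The other tested markers of primitive endoderm, GATA6, FN1 and RBP4, were above 0, at 0.34, 0.03 and 0.02. RBP4 was above the limit on 2 arrays in each condition. Its ratios of -0.86, -0.04, 0.35 and 0.65 on replicates 1 to 4 followed the dye orientation. The median of the primitive endoderm list was 0.02. The trophectoderm factor GATA2 was at -0.48 and the oocyte kinase gene MOS at -0.38, both below 0 on all 4 arrays, and the pluripotency factor POU5F1 was at -0.38, below 0 on 3 arrays. The 5 markers with an unadjusted p under 0.05 were named after their values were seen, and they lay in the same direction as LDHA. The part of these cell types in the results below was not tested.

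LDHA, whose subunit favours the reduction of pyruvate to lactate, was lower after coculture on all 4 arrays, at 0.720 of the control level in the fit (95% confidence interval 0.569 to 0.911). PDHA1, the catalytic alpha subunit that opens the pyruvate dehydrogenase reaction, was higher on all 4 arrays, at 1.31 times the control level (95% interval 1.01 to 1.70). Neither passed the threshold of 0.05 after adjustment over all 15631 probes tested: limma's Benjamini-Hochberg adjusted p was 0.629 for LDHA and 0.635 for PDHA1. LDHB and the tested glycolytic enzymes HK1, TPI1, GAPDH, PGK1 and ENO1 had fitted log2 ratios between -0.26 and 0.11, each with a 95% interval that included 0.

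Of the 13 member probes, 10 were tested, representing 8 genes. The filter asked for signal above the limit on at least 2 arrays in 1 condition. It left out HK2, the GAPDH probe EMPV1_38092 and the PGK1 probe EMPV1_35526. Of the tested probes, 0 had an adjusted p under 0.05 in limma, where 0% of all tested probes did. Before adjustment 2 members passed 0.05, LDHA lower and PDHA1 higher. Among all tested probes 7.84% reached that level, 3.7% lower and 4.15% higher. Both were also the members with 1 sign on all 4 arrays, and among all tested probes 6.88% lay below 0 and 6.28% above 0 on all 4. The 10 member probes were divided evenly, with 5 ratios below 0 and 5 above, and their median log2 ratio was 0.012, against 0.0017 over all tested probes, of which 49.7% were below 0. The median size of a ratio, regardless of sign, was 0.10 for the members and 0.13 for all tested probes. The 95% interval of a member extended a median of 0.35 log2 units to each side, before any adjustment. After adjustment no probe passed at any size of ratio, so with 4 arrays the lack of a call does not show that a member was unchanged.

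**Figure D1:**
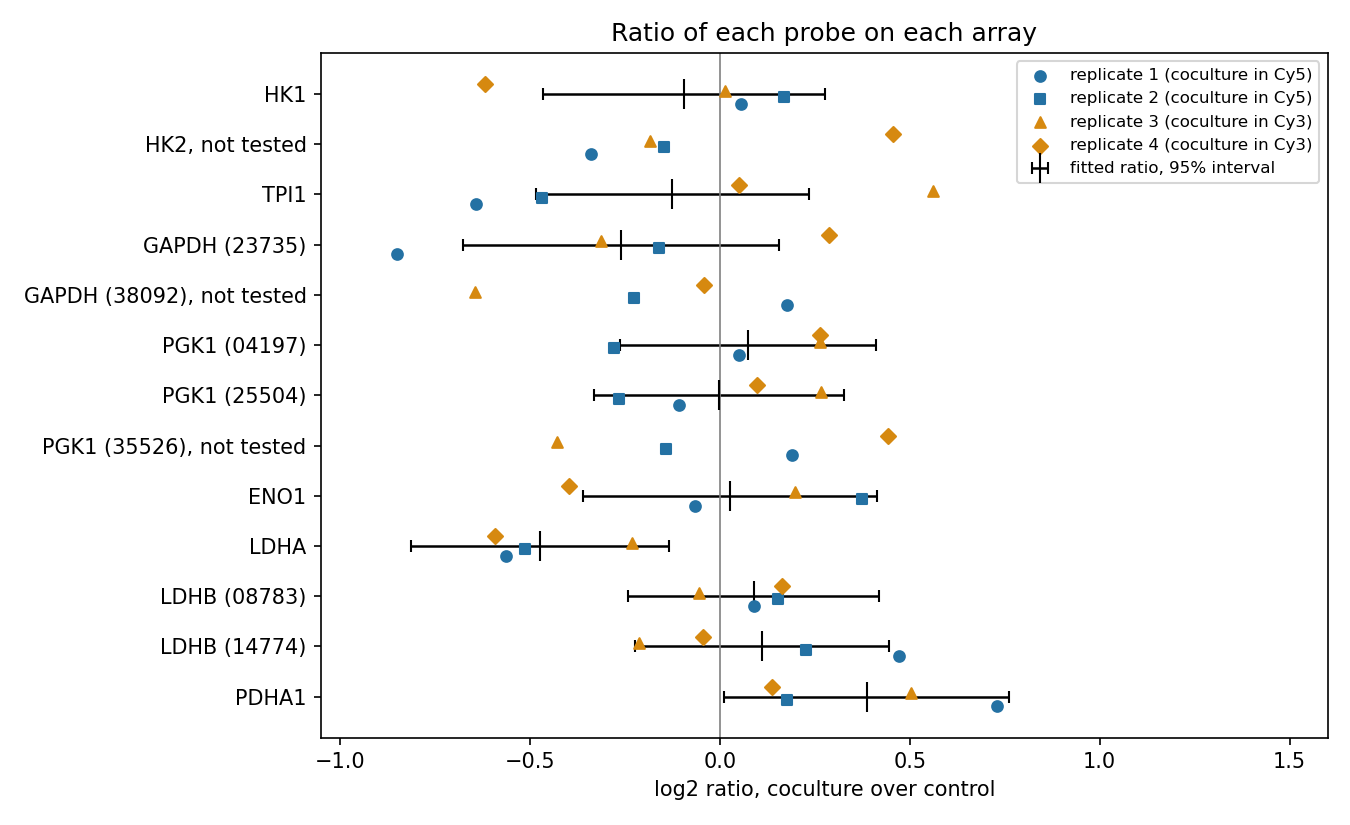
Log2 ratio of coculture over control (horizontal axis) for each of the 13 member probes (vertical axis) on each array, with colour marking the dye orientation and the black bar the fitted ratio with its 95% interval where the probe was tested. LDHA has its 4 points between -0.59 and -0.23 and PDHA1 between 0.14 and 0.73, while the points of each other tested member lie on both sides of 0.

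Hexokinases trap glucose in the cell by phosphorylating it. HK1, the widely expressed form, lay close to the detection limit, with raw median intensities of 750, 1041, 746 and 679 in coculture and 920, 1020, 888 and 631 in control on replicates 1 to 4. It was above the limit on 3 arrays in coculture and on 2 in control, and on replicate 4 it was not above the limit in either channel. Its log2 ratios were 0.06, 0.17, 0.01 and -0.62, so that this array turned the fitted ratio to -0.09 (95% interval -0.47 to 0.28, limma adjusted p = 0.911). Without replicate 4 the ratio was 0.063. HK2, the inducible form typical of muscle and of rapidly growing cells, was not above the limit on any array in either condition, with intensities of 495 to 755 in coculture and 541 to 797 in control.

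TPI1 interconverts the pair of triose phosphates made by aldolase. Its raw intensities were 8788, 6229, 8807 and 7174 in coculture and 13951, 9393, 6378 and 7190 in control. The log2 ratios of -0.64 and -0.47 on replicates 1 and 2 stood against 0.56 and 0.05 on replicates 3 and 4, and the signs followed the dye orientation. The fit placed a dye effect of -0.43 (Cy5 over Cy3) beside a coculture ratio of -0.13 (95% interval -0.48 to 0.23, adjusted p = 0.873 in limma). Without replicate 4 the ratio was 0.0029.

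GAPDH oxidises glyceraldehyde 3-phosphate, the NADH-yielding step, and is often used as a reference gene. Its brighter probe, EMPV1_23735, read 10461, 12545, 19993 and 31556 in coculture and 18920, 15207, 26000 and 28321 in control, so that coculture was lower on 3 arrays and higher on replicate 4. Within coculture the highest array was 3.02 times the lowest, and within control 1.86 times. After normalization the SD among the channels of 1 condition was 0.74 log2 units, and 94.8% of the tested probes with values in all 8 channels had a smaller one. The ratios of -0.85, -0.16, -0.31 and 0.29 gave a fitted value of -0.26 (95% interval -0.68 to 0.16, adjusted p = 0.749 in limma). Without replicate 4 it was -0.43, and without replicate 1 it was -0.09. The other probe, EMPV1_38092, read 552, 871, 549 and 833 in coculture and 666, 1028, 782 and 677 in control and was above the limit in 1 of the 8 channels.

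PGK1 makes the first ATP of the pathway. Its brightest probe, EMPV1_25504, read 32012, 36198, 39638 and 30760 in coculture and 34014, 45765, 34737 and 31483 in control, overlapping ranges. Its log2 ratios of -0.11, -0.26, 0.27 and 0.10 gave a fitted value of -0.0027 (95% interval -0.33 to 0.33, adjusted p = 0.998 in limma). The channels of a condition differed little at this probe, with an SD of 0.20 log2 units, and 13.7% of the tested probes had a smaller one. A dimmer probe, EMPV1_04197, read 1415, 1059, 1213 and 1164 in coculture and 1609, 1299, 1200 and 931 in control, and its fitted value was 0.07 (95% interval -0.26 to 0.41, limma adjusted p = 0.926). At both probes the mean ratio was below 0 on the replicates with coculture in Cy5 and above 0 on those with coculture in Cy3. The third probe, EMPV1_35526, was above the limit in 1 of the 8 channels, with intensities of 627 to 964 in coculture and 681 to 913 in control.

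ENO1 forms phosphoenolpyruvate, the last intermediate before pyruvate kinase. Its intensities were 1278, 1456, 1368 and 1520 in coculture and 1522, 1279, 1394 and 1737 in control, above the limit on every array. The log2 ratios of -0.06, 0.37, 0.20 and -0.40 gave a fitted value of 0.03 (95% interval -0.36 to 0.41, adjusted p = 0.981 in limma), and the sign of that value turned under mean pixel intensities, under median centring, and without replicate 2 or 3.

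**Figure D2:**
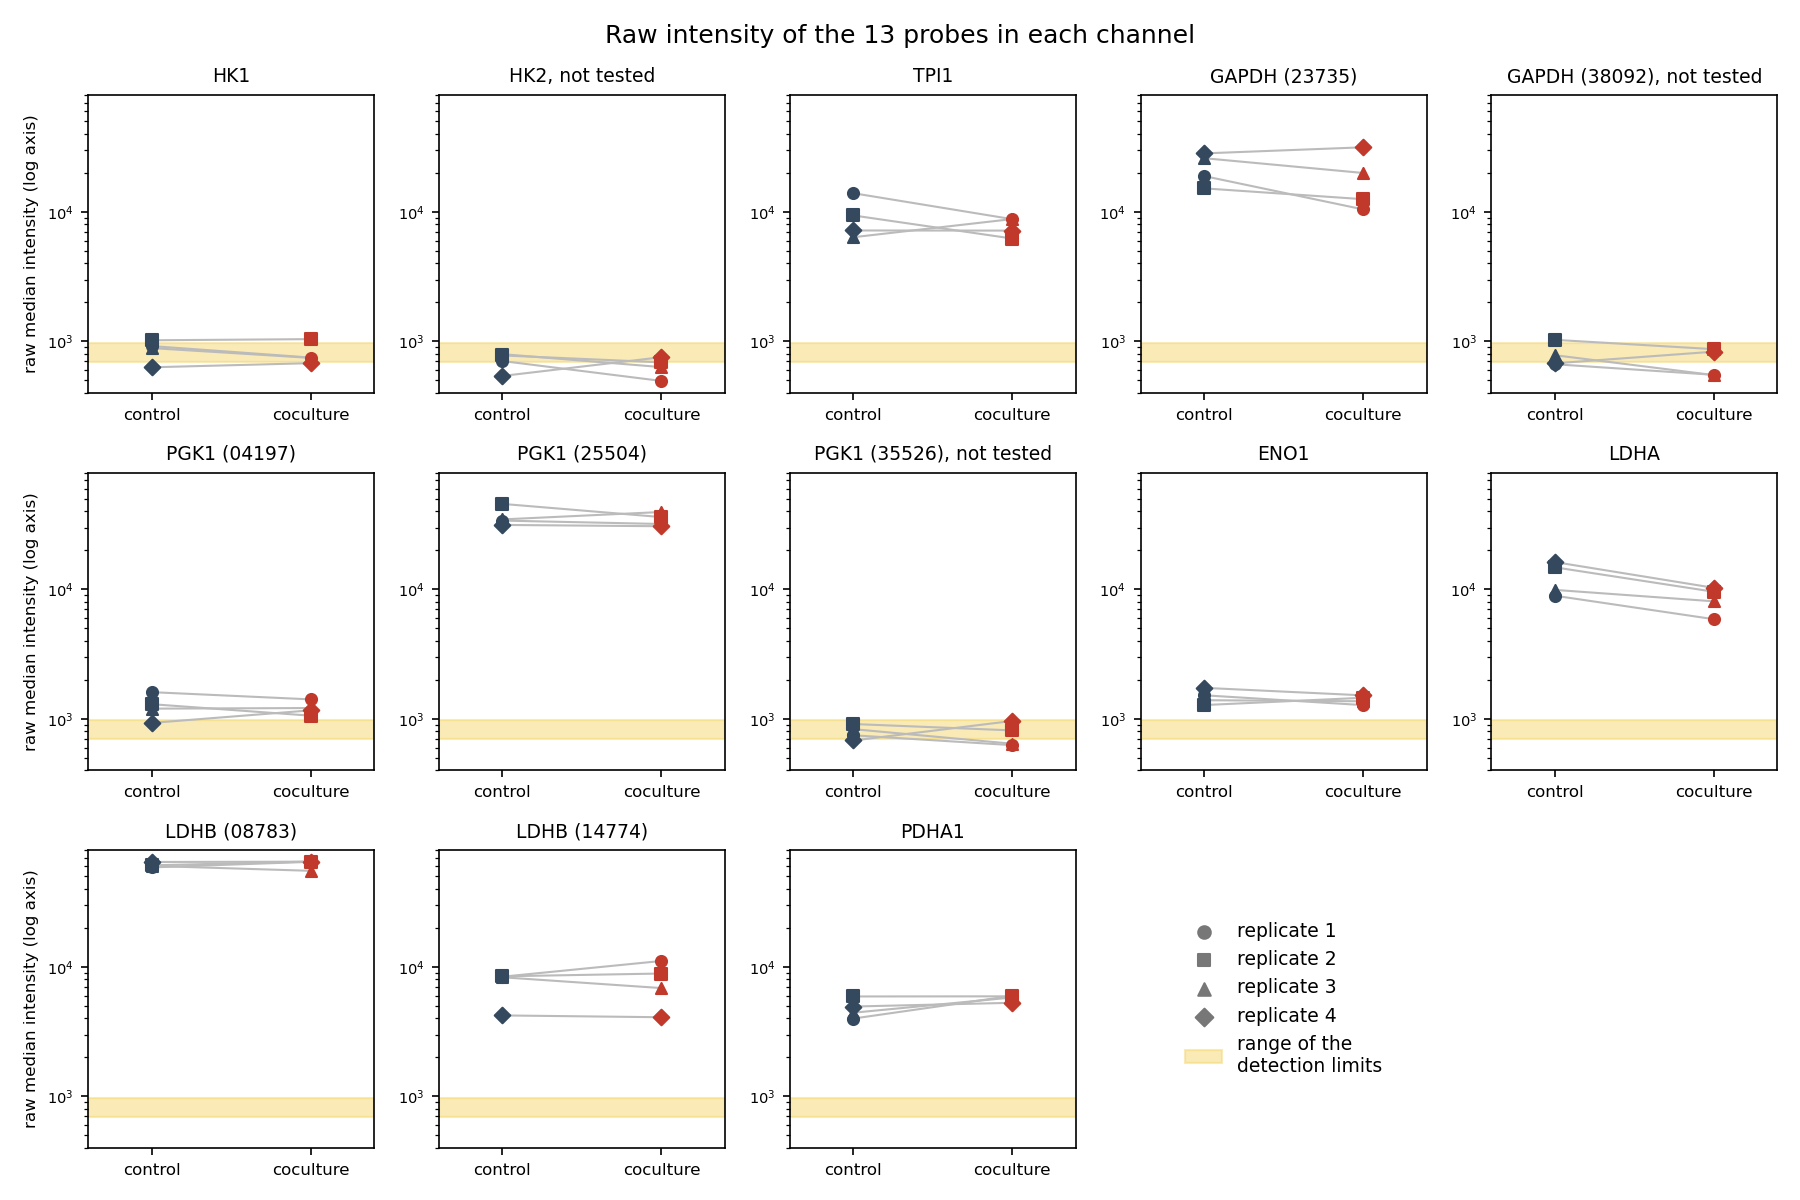
Raw median pixel intensity (vertical axis, log scale, intensity units) of each member probe, 1 panel per probe, in control and coculture, with a line joining the channels of 1 array and a band over the range of the detection limits. LDHA lies between 5887 and 16258 with control above coculture on each array, and HK2 stays between 495 and 797.

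LDHA read 5887, 9590, 8091 and 10284 in coculture and 8938, 14813, 9915 and 16258 in control on replicates 1 to 4. Control exceeded coculture on every array, with raw ratios of 0.659, 0.647, 0.816 and 0.633, although the ranges of the conditions overlapped because the arrays themselves differed. After normalization the mean log2 level was 12.97 ± 0.47 (SD, n = 4) in coculture and 13.44 ± 0.49 (SD, n = 4) in control. The log2 ratios of -0.56, -0.51, -0.23 and -0.59 held the same sign in both dye orientations, with means of -0.54 where coculture carried Cy5 and -0.41 where it carried Cy3. The fitted value was -0.47 ± 0.15 (SE, 95% interval -0.81 to -0.14), with an unadjusted p of 0.0121 in limma's fit across all tested probes. Of these probes, 2.03% had a lower ratio and 1.81% a smaller p. In the authors' deposited table, turned for the dyes, the LDHA ratios were -0.56, -0.57, -0.32 and -0.56.

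LDHB encodes the heart-type subunit, which favours the oxidation of lactate to pyruvate. Its brighter probe, EMPV1_08783, read 64832, 65124, 55251 and 65007 in coculture and 58727, 60924, 60285 and 64653 in control. These intensities were 84.3% to 99.4% of the end of the scanner scale at 65535, which leaves little room for a higher reading. Its ratios of 0.09, 0.15, -0.05 and 0.16 gave a fitted value of 0.09 (95% interval -0.24 to 0.42, adjusted p = 0.908 in limma). The other probe, EMPV1_14774, had room on the scale and read 11117, 8893, 6865 and 4087 in coculture and 8403, 8461, 8319 and 4221 in control. Its ratios were 0.47 and 0.23 on the arrays with coculture in Cy5 and -0.21 and -0.04 on those with the dyes exchanged. The fitted value was 0.11 (95% interval -0.22 to 0.44, limma adjusted p = 0.879), and the signs followed the dye orientation.

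PDHA1 read 5982, 5928, 5809 and 5284 in coculture and 3993, 5913, 4429 and 4944 in control. The coculture channels lay close together and the control channels were spread more widely, with log2 levels after normalization of 12.44 ± 0.10 (SD, n = 4) and 12.06 ± 0.29 (SD, n = 4). The raw ratios were 1.50, 1.00, 1.31 and 1.07, so that replicates 1 and 3 carried most of the difference and replicate 2 showed almost none before normalization. The log2 ratios of 0.73, 0.18, 0.50 and 0.14 had means of 0.45 with coculture in Cy5 and 0.32 with coculture in Cy3. The fitted value was 0.39 ± 0.16 (SE, 95% interval 0.01 to 0.76) with an unadjusted p of 0.0446 in limma's fit across all tested probes, of which 4.47% had a higher ratio. Without replicate 1 the PDHA1 ratio was 0.25. The authors' deposited table gave 0.65, 0.16, 0.41 and 0.14.

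**Figure D3:**
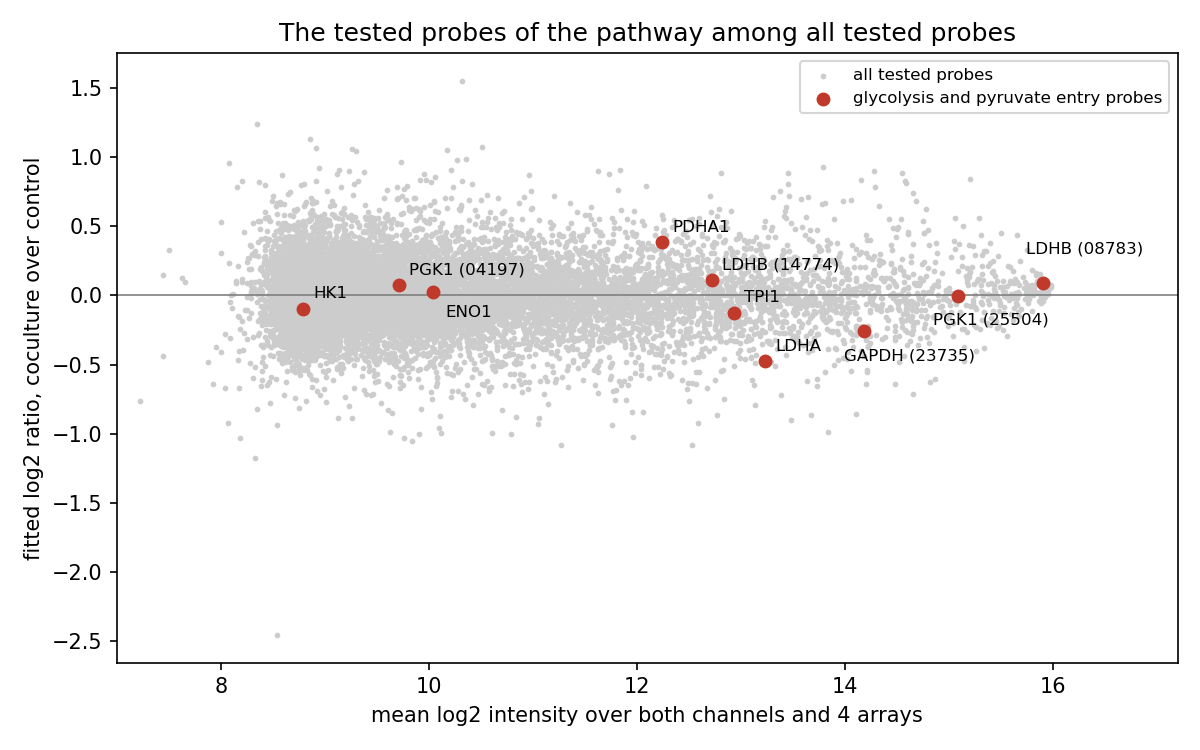
Fitted log2 ratio of coculture over control (vertical axis) against the mean log2 intensity over both channels and 4 arrays (horizontal axis) for the 15631 tested probes in grey and the 10 tested member probes in red. LDHA at -0.47 and PDHA1 at 0.39 sit inside the grey cloud, and the other members lie between -0.26 and 0.11.

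Differences between members were taken within each array for 3 pairs, with the brightest probe of each gene. Their 95% intervals are t intervals over the 4 arrays, apart from the permutation test. For HK1 and HK2 no difference is given here as a result, because the HK2 probe was not above the detection limit in any channel. Its values appear only among the flagged values and the processing alternatives below. This pair still counted among the 3 in the adjustment. The change of LDHA relative to the LDHB probe EMPV1_08783, which lay near the end of the scale, was -0.65, -0.67, -0.18 and -0.76 log2 units on replicates 1 to 4, a mean of -0.56 ± 0.26 (SD, n = 4, 95% interval -0.98 to -0.15). As the ratios of that LDHB probe were small, from -0.05 to 0.16, this difference largely repeats the LDHA ratio. The exact two-sided sign-flip permutation test gave p = 0.13, the smallest value that 4 arrays allow, and 0.188 after adjustment over the 3 pairs. Against the other LDHB probe, EMPV1_14774, a comparison added after seeing the data, the differences were -1.03, -0.74, -0.017 and -0.55, with a mean of -0.58 ± 0.43 (SD, n = 4) and a 95% interval of -1.27 to 0.10 that included 0. On replicate 3 the ratios of LDHA and this probe nearly coincided. The change of PDHA1 relative to LDHA was 1.29, 0.69, 0.73 and 0.73, a mean of 0.86 ± 0.29 (SD, n = 4, 95% interval 0.40 to 1.32), which corresponds to a 1.82-fold difference between the ratios. It was positive on every array, and its exact permutation p was again 0.13, or 0.188 adjusted. As LDHA and PDHA1 were paired with their separate ratios already known, this difference carries no evidence beyond them.

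**Figure D4:**
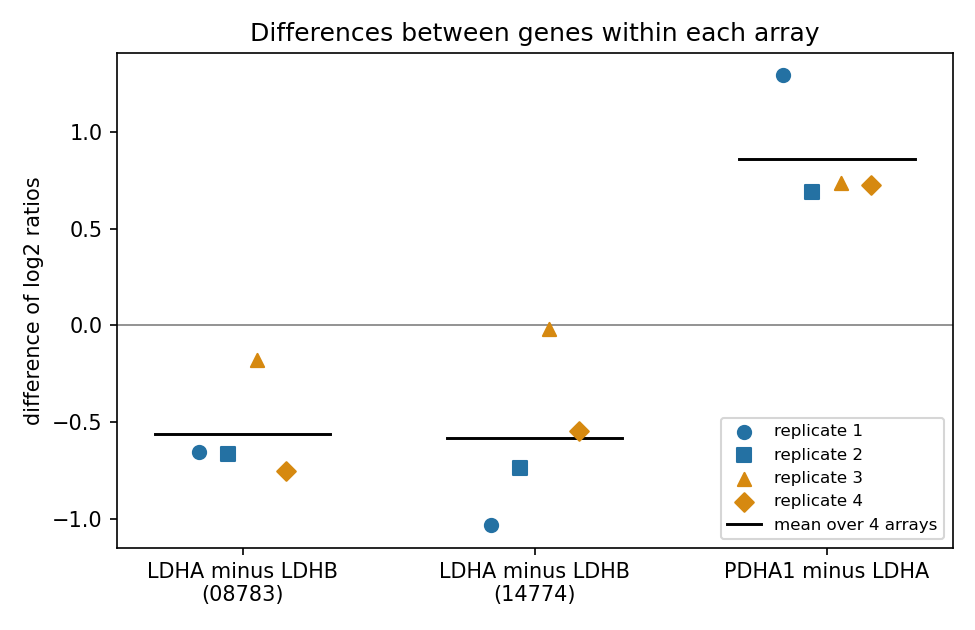
Difference of the log2 ratios within each array (vertical axis) for LDHA minus each of the 2 LDHB probes and PDHA1 minus LDHA, 1 point per array, with colour marking the dye orientation and the black line the mean over the 4 arrays. The points run from -0.76 to -0.18 for LDHA minus LDHB at EMPV1_08783, from -1.03 to -0.017 at EMPV1_14774, and from 0.69 to 1.29 for PDHA1 minus LDHA.

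The levels of LDHA over the 8 channels were set beside those of 2891 named genes above the limit in all channels. The most similar were RYK (a receptor of the Wnt pathway, Pearson's r = 0.972), ELOVL1 (a fatty acid elongase, r = 0.947), OPTN (an autophagy receptor, r = 0.935), TRAPPC2L (a subunit of a vesicle tethering complex, r = 0.934) and PERP (a desmosome protein, r = 0.934). The 8 channels share 4 arrays, so these values are descriptions without a test. The fitted log2 ratios of these genes were -0.24, -0.35, -0.16, -0.15 and -0.21, with limma adjusted p-values of 0.697, 0.654, 0.818, 0.836 and 0.770. RYK, ELOVL1 and OPTN were below 0 on all 4 arrays, as were 6.88% of all tested probes. The genes were chosen by likeness to LDHA over channels of both conditions. That choice itself favours ratios below 0, so their direction adds no support. Among the members, the channel pattern of GAPDH at EMPV1_23735 had r = 0.633 with LDHA, and PDHA1 had r = 0.0916. Probes of 1 gene differed. LDHB had r = -0.809 at EMPV1_14774 and 0.0143 at EMPV1_08783, and PGK1 had -0.719 at EMPV1_04197 and 0.331 at EMPV1_25504.

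The rest of the pathway was read from 6 lists of 91 genes, of which 59 had a probe and 37 were tested. The genes tested had 21 ratios below 0 and 16 above, with a median log2 ratio of -0.05. None had a limma adjusted p under 0.05. Before adjustment 4 passed 0.05, with 2 lower and 2 higher, where 7.84% of all tested probes did. Of the remaining glycolytic enzymes 4 of 20 were tested, with 3 below 0 and 1 above and a median of -0.13. GPI, which converts glucose 6-phosphate to fructose 6-phosphate, had log2 ratios of -0.48, -0.32, -0.73 and -0.01 at its brightest probe, a fitted value of -0.38 (95% interval -0.77 to 0.0031, unadjusted p = 0.0515 and adjusted p = 0.635 in limma). Its other probes, at 0.05 and 0.08, did not share the direction. PFKM and PFKP, forms of the committing phosphofructokinase, had probes that were not tested because of low signal.

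Among the subunits and regulators of the pyruvate dehydrogenase complex 4 of 12 genes were tested, with 2 ratios below 0 and 2 above and a median of -0.0048. PDHX, the protein that anchors the E3 subunit, was above the detection limit on 2 control arrays and on 0 coculture arrays. It entered the test through the control channels alone, which favours a lower coculture value, so its place among the 2 lower genes with an unadjusted p under 0.05 supports nothing. Its mean measured signal in control was 1.31-fold that in coculture (limma adjusted p = 0.630), with the coculture signal not above the limit on any array. The E2 subunit DLAT was at -0.09, and PDK3, a kinase that inhibits PDHA1 by phosphorylation, was at 0.24 (95% interval -0.13 to 0.61). The E3 subunit DLD and the kinase PDK1 were not tested because of low signal.

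Among transporters of glucose, lactate and pyruvate 6 of 15 were tested, with 2 ratios below 0, 4 above and a median of 0.06. SLC2A1, the main glucose transporter of the early embryo, was at 0.02 at its brighter probe and -0.09 at the other. SLC16A1, which carries lactate and pyruvate across the plasma membrane, was below 0 on all 4 arrays with a fitted log2 ratio of -0.28 (95% interval -0.61 to 0.04, adjusted p = 0.669 in limma). It was above the detection limit on 2 arrays in coculture and 3 in control, so part of its ratios come from signal at the limit. MPC1, a subunit of the mitochondrial pyruvate carrier, was at 0.46 (95% interval -0.17 to 1.09), carried by replicate 3 with a ratio of 1.74 beside 0.38, -0.22 and -0.06 on replicates 1, 2 and 4. The gene of smallest p in the list was the glucose transporter SLC2A12, at 0.55 (95% interval 0.02 to 1.09, unadjusted p = 0.0431 and adjusted p = 0.635 in limma), with ratios of -0.35, 0.13, 1.92 and 0.52. SLC2A12 was above the detection limit on 3 arrays in coculture and 2 in control.

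Among regulators of glycolytic flux and gluconeogenic enzymes 7 of 16 were tested, with 4 ratios below 0, 3 above and a median of -0.04. MYC, a transcription factor whose known targets include LDHA, had log2 ratios of 0.32, 1.21, 0.32 and 0.47 and a fitted value of 0.58 (95% interval 0.16 to 0.99, unadjusted p = 0.0123 and adjusted p = 0.629 in limma). MYC was above 0 on all 4 arrays, on which LDHA was below 0, and a link between them was not tested. PC, the mitochondrial pyruvate carboxylase, was named after its values were seen as the remaining gene with an unadjusted p under 0.05, at -0.44 (95% interval -0.84 to -0.04, below 0 on 3 of 4 arrays, unadjusted p = 0.0364 and adjusted p = 0.632 in limma). The oxygen-regulated factor HIF1A was not tested because of low signal. In the pentose phosphate pathway, which branches from glucose 6-phosphate, 4 of 8 genes were tested with 3 ratios below 0 and a median of -0.09, and PGD had the smallest p at a fitted ratio of -0.19 (95% interval -0.52 to 0.14). In the tricarboxylic acid cycle, which receives the acetyl-CoA, 12 of 20 genes were tested, with 7 ratios below 0 and 5 above and a median of -0.03. CS, which condenses acetyl-CoA with oxaloacetate, was at -0.05, 0.19 and 0.04 at its 3 probes. IDH3B, a subunit of isocitrate dehydrogenase, had the smallest p of the list, with a fitted ratio of 0.28 (95% interval -0.05 to 0.61, adjusted p = 0.674 in limma).

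**Figure D5:**
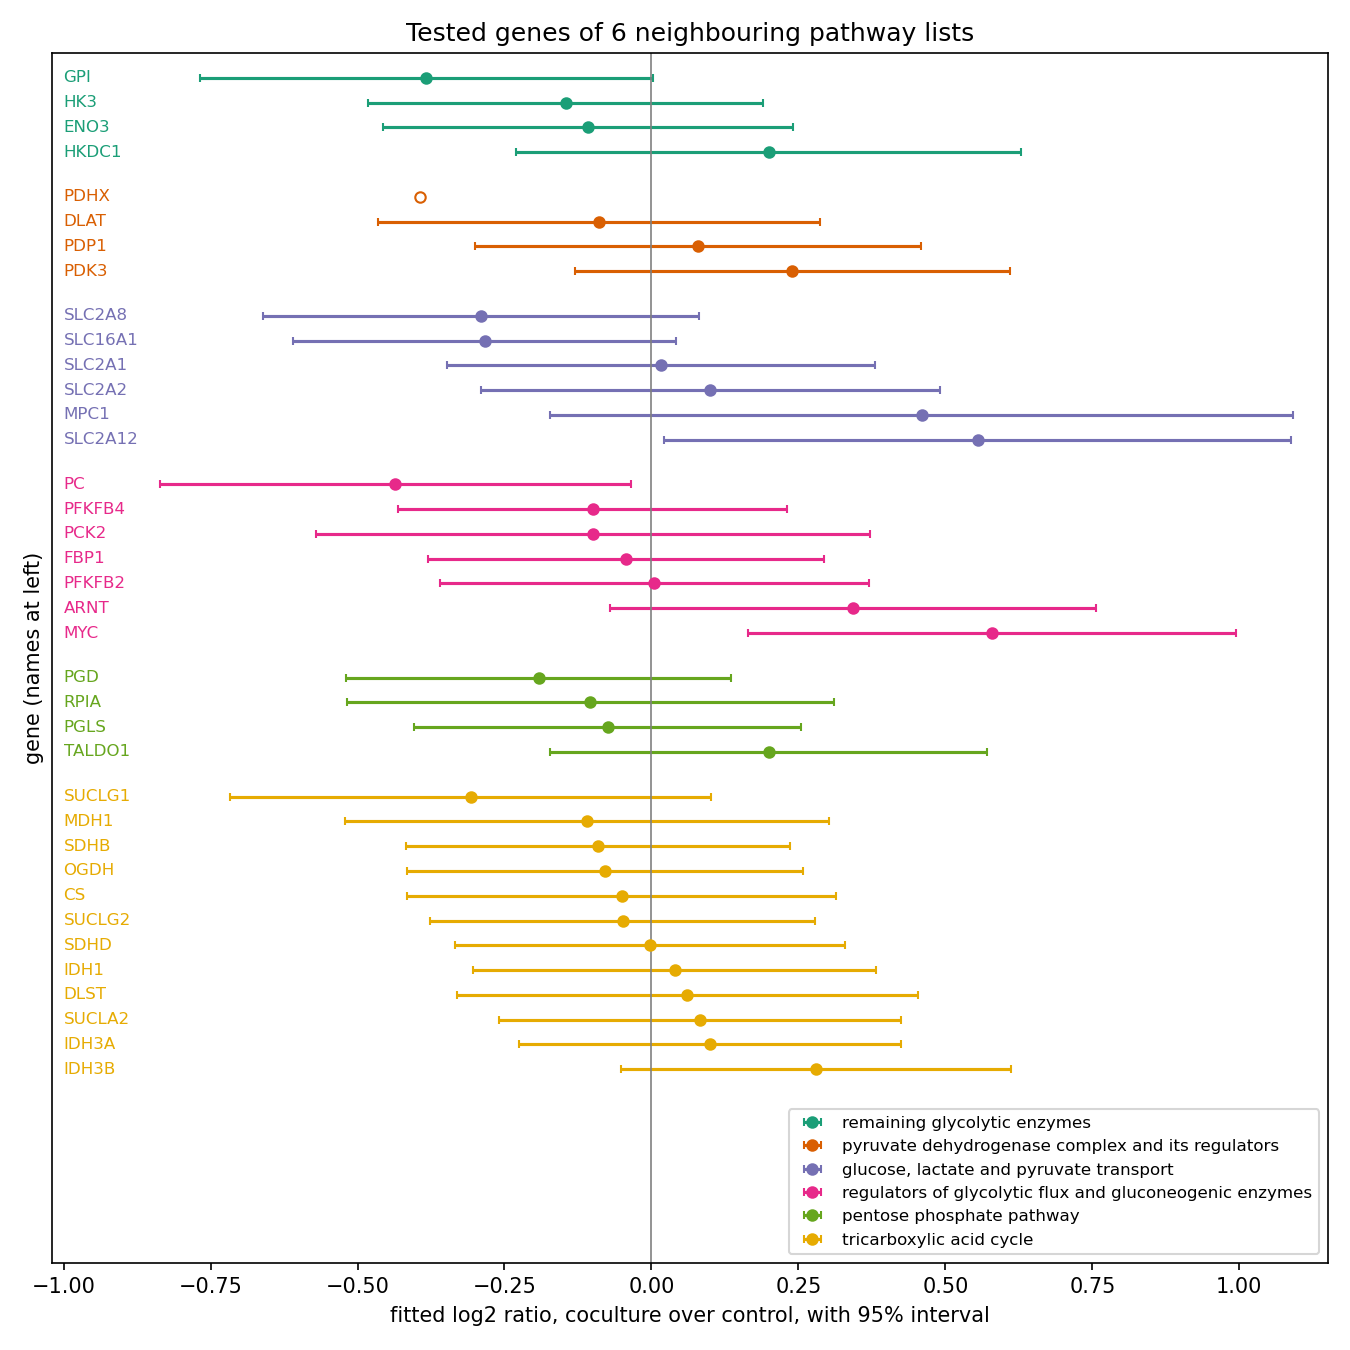
Fitted log2 ratio of coculture over control (horizontal axis) with its 95% interval for the tested genes of the 6 pathway lists (vertical axis, grouped by list), 1 probe per gene, with an open point and no interval for PDHX, which was not above the limit in coculture. The 37 values run from -0.44 to 0.58 and lie on both sides of 0 in every list.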

How the data were processed

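The deposited scanner tables hold raw median and mean pixel intensity and local background per spot and dye, per the file headers, with a mark on spots left out. The authors also deposited a log2 table whose columns, set against the scanner values, followed Cy5 over Cy3 on every array (r of 0.941 to 0.961, slopes of 0.963 to 1.04), not turned for the dyes, with column medians of -0.0133, -0.013, -0.000395 and -0.0167. Its exact centring stays unknown. RNA was amplified and labelled chemically, per the labels' protocols. Limma was used upstream, per the submitters' processing notes, with no version stated in the sources at hand.

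From the median intensities, normexp background correction (offset 50) and loess within arrays were run in limma 3.58.1 (R 4.3.3), with control and left-out spots (74 to 150 per array) at weight 0. Loess centres each array, so a shift shared by most probes would not show. The log2 ratios of all tested probes were fitted with lmFit and eBayes with a dye intercept and a coculture term, leaving 2 residual degrees of freedom (6.04 prior). A tested probe exceeded the limit on at least 2 arrays of a condition and had values on at least 3. P-values were adjusted by Benjamini-Hochberg. Levels per channel are after loess and Aquantile normalization. The steps were tested on simulated data. The number of arrays limits the precision.

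Symbols came from the platform annotation, updated through RefSeq tables: 18121 probes had 1 symbol, 0 had several and 25673 were unnamed here. Genes with several probes are represented by the brightest. The members and lists were chosen with earlier results of these data known. Named beside the members were a fixed set of pathway genes, the gene of smallest p in each list, any with adjusted p under 0.05, and the 5 genes most like LDHA. Alternatives were other background, pixel, normalization, dye, filter, variance and pairing choices, the authors' table, and leaving out each replicate.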

Additional observations from a re-analysis of the deposited data

Results flagged for a closer look

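In 4 of the 65 groups of 4 values examined, 1 array lay far from the other 3 by Dixon's criterion, which chance meets in about 1 of 20 groups. The change of PDHA1 relative to LDHA was 1.29 on replicate 1, against 0.69 to 0.73 on the other arrays. The change of HK1 relative to HK2 was -1.07 on replicate 4, against 0.20 to 0.40 on the others, but HK2 was not above the detection limit on any array, nor HK1 on replicate 4, so these values are not measured differences. The log2 ratio of MYC was 1.21 on replicate 2, against 0.32 to 0.47 on the others. The log2 ratio of PERP was 0.15 on replicate 3, against -0.35 to -0.30 on the others.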

How the results depend on the processing

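LDHA kept its sign under 14 of 14 alternatives (log2 ratio -0.57 to -0.38, unadjusted p under 0.05 in 11, adjusted p 0.540 to 1.00), as did PDHA1 (0.25 to 0.53, 10 of 14, adjusted p 0.491 to 1.00) and GAPDH (-0.43 to -0.09). For most of these alternatives the sign was fixed in advance. The dye, filter, variance and pairing choices left the fitted ratios of these probes unchanged by construction. Leaving out 1 array could not turn LDHA or PDHA1, which had 1 sign on all 4. No alternative gave a probe an adjusted p under 0.05. All tested probes at an unadjusted p under 0.05 numbered 1226. They were 813 without the dye term, 2643 with no filter on the detection limit, which tests more probes, and 609 (without replicate 2) to 1505 (without replicate 4) when replicates were left out. In a channel fit with no replicate block for the array they were 258, with 0 member probes and 1 pathway gene. Of the member probes 2 had an unadjusted p under 0.05 in the reported fit, 1 under median centring, and 0 (without replicate 1) to 2 when replicates were left out, with 1 without replicate 3 or 4. The 4 pathway genes became 2 without the dye term and 1 to 6 when replicates were left out, 2 of them without replicate 1 and 1 without replicate 2. The members' median log2 ratio of 0.0123 became -0.0632 under median centring, and -0.0773 (without replicate 3) to 0.0513 (without replicate 4) when replicates were left out. Small ratios changed sign. PGK1 at EMPV1_25504 was 0.0682 with mean pixel intensities, 0.0360 as the mean over probes, 0.0367 without replicate 2 and 0.0395 without replicate 4 (lowest -0.0449), and at EMPV1_04197 it was -0.00775 without replicate 1 (highest 0.157). ENO1 was -0.0355 with mean pixel intensities, -0.0478 under median centring, -0.0823 without replicate 2 and -0.122 without replicate 3 (highest 0.176). Without replicate 4, TPI1 was 0.00294 (lowest -0.25) and HK1 was 0.0631 (lowest -0.25). HK1 minus HK2, which rests on an HK2 probe not above the detection limit, was -0.0401 with the settings used for the other pairs, 0.0167 without background correction, 0.00282 with plain subtraction, 0.00784 in the authors' table and -0.19 to 0.30 when replicates were left out, the highest without replicate 4. Beyond what fewer samples or more probes give by construction, the cause was not tested. Among the genes named, signal was not above the detection limit in every channel for HK1, HK2, PDHX, SLC16A1, SLC2A12, MPC1, APOE, RBP4 and MOS. The same holds for PFKM, PFKP, DLD, PDK1 and HIF1A, which were not tested, and for the dimmest probes of GAPDH and PGK1. The end of the scale limits LDHB at EMPV1_08783.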
